A study of Rattus norvegicus with 24 samples.

Results

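In rat left ventricle, 272 genes had mean levels that fell at each of 3 steps. The steps were from Sham to infarct, from infarct to infarct with a sutured patch, and from the sutured to the microneedle patch. The deposited table lists 32883 genes, of which 21877 had a count in any library. The 272 genes were chosen by their measured levels. CPM values (a gene's share of the total count of its library, scaled to a fixed total) were averaged over each group, and a gene was taken if its Sham mean was at least 5 CPM and each of the 3 steps was at least 1.5-fold. The 100 genes highest in Sham were left out, of which 25 met the same conditions. Outside these 100, 10879 genes reached the Sham minimum and so could be chosen. Every fall between neighbouring groups was therefore fixed by the choice and is given as a description. Calls of the members in tests across all genes are listed below, and nothing is read from them. The deposited table names genes by Ensembl ID alone, and 0 of its 32883 IDs could be paired with a symbol here. The 272 genes are therefore described as a group, and the 2 IDs with the highest Sham levels are given in full.

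In myocardial infarction (MI), heart muscle dies because its blood supply is lost. In the days that follow, dead muscle is cleared by immune cells and replaced by new connective tissue and vessels, and transcripts of contracting muscle and its energy metabolism are known to become less abundant in the damaged wall. In bulk tissue, a lower level can come from fewer cells of a type or from less RNA per cell. A level in CPM is a share of the library's counts, so it also falls when other transcripts rise. These cannot be told apart here. The identity of the sampled tissue could not be checked against muscle or other marker genes, because these too would need symbols.

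The 24 libraries came from left ventricle of Sprague Dawley rats, an outbred strain, in 4 groups of 6: Sham, MI without a patch, MI with a sutured patch (Sutured patch) and MI with a patch held by microneedles (Microneedle patch). Tissue of the infarct region was collected at day 7 after infarction and implantation; the labels give no age or sex, no patch composition and no site for the Sham tissue. They also do not state that each library came from its own animal, so the spread between libraries may be technical. The groups are separate treatments, and the order in which the genes fall is not a time course.

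Total counts ran from 12574300 to 14552623 in the 18 libraries of infarcted hearts and from 5443782 to 11757562 in Sham. Sham replicate 5 was the shallowest and Sham replicate 3, with 8303319 counts, the next. A floor of 3 counts corresponds to 0.551 CPM in Sham replicate 5 and to 0.239 CPM or less in each library of the infarct groups, counting error only.

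Together the 272 genes made up 2.62% ± 1.41 of the Sham counts, 1.03% ± 0.450 of the MI counts, 0.520% ± 0.333 of those of the sutured patch group and 0.203% ± 0.0483 of those of the microneedle patch group (SD, n = 6 each). In Sham their share was lowest in replicate 5 (1.07%), with a median of 2.33%, and highest in replicates 4 (4.30%) and 1 (4.34%). In MI it ran from 0.544% in replicate 3 through a median of 0.920% to 1.89% in replicate 1. With the sutured patch it ran from 0.145% in replicate 6 through a median of 0.475% to 1.07% in replicate 1. With the microneedle patch it ran from 0.159% through a median of 0.190% to 0.277%. Neighbouring groups overlapped at all 3 steps. MI replicate 1 stood above Sham replicates 3 and 5, sutured patch replicate 1 stood above 5 of the 6 MI libraries, and sutured patch replicate 6 stood below all 6 microneedle patch libraries. Sham and the microneedle patch group did not overlap, and neither did MI and the microneedle patch group. The ratio of group means was 2.56 from Sham to MI, 1.97 from MI to the sutured patch and 2.56 from the sutured to the microneedle patch.

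**Figure D1:**
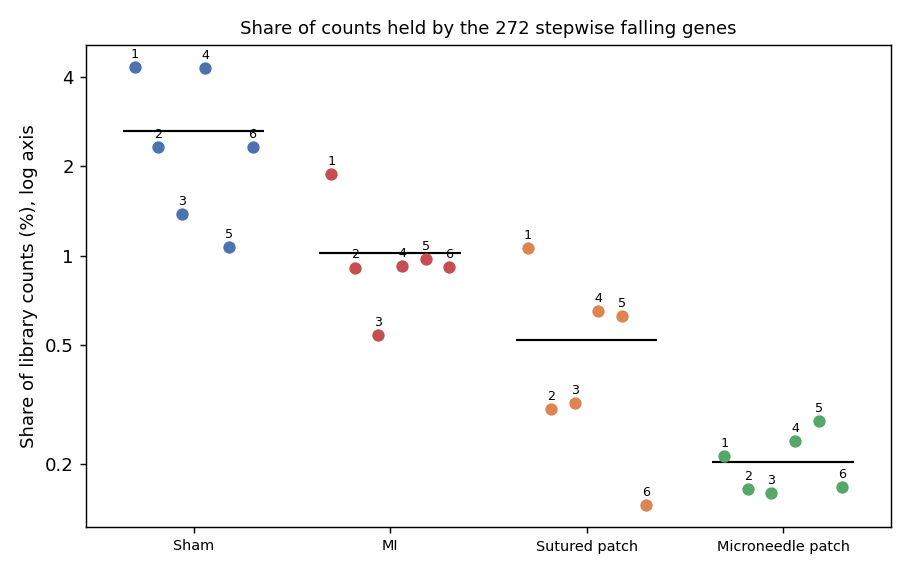
Share of each library's counts held by the 272 genes (percent, log axis), 1 point per library labelled with its replicate number, in the 4 groups. Horizontal lines mark group means, which fall from 2.62% in Sham to 0.203% with the microneedle patch, while sutured patch libraries range from 0.145% to 1.07%.

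The member with the highest Sham level, ENSRNOG00000014656, stood at 611, 1154, 1246, 1005, 142 and 1082 CPM in Sham replicates 1 to 6. In MI it stood at 214, 101, 46.3, 77.6, 88.1 and 124 CPM, in the same order of replicates. It fell further to 65.6, 13.4, 19.0, 41.5, 56.7 and 1.87 CPM with the sutured patch. With the microneedle patch it was at 6.62, 9.60, 3.11, 7.28, 12.2 and 4.56 CPM. In Sham only replicate 5 was low, below MI replicate 1, and with the sutured patch replicate 6 was lower than any microneedle patch library. Group means were 873 ± 420, 108 ± 57.7, 33.0 ± 25.5 and 7.23 ± 3.31 CPM (SD, n = 6 each). The fitted log2 fold changes of this gene were -3.05 (SE 0.57) for MI against Sham, -1.77 (SE 0.55) for the sutured patch against MI and -2.09 (SE 0.57) for the microneedle against the sutured patch.

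The next highest member, ENSRNOG00000014815, stood at 1247, 784, 294, 977, 597 and 837 CPM in Sham replicates 1 to 6. Its MI libraries held 350, 205, 85.1, 204, 207 and 211 CPM. Its sutured patch libraries held 221, 67.0, 61.4, 114, 131 and 6.79 CPM, and its microneedle patch libraries 27.6, 22.6, 11.51, 28.4, 39.6 and 14.04 CPM. Here the low Sham library was replicate 3, below MI replicate 1, and sutured patch replicate 6 was again under every microneedle patch library. Group means were 789 ± 325, 210 ± 83.9, 100.1 ± 73.5 and 23.96 ± 10.3 CPM (SD, n = 6 each). Its fitted log2 fold changes were -1.97 (SE 0.49), -1.13 (SE 0.48) and -1.98 (SE 0.49) at the 3 steps. In the edgeR test across all genes, both IDs were called lower in MI than in Sham at an adjusted p below 0.05. Neither was called at either patch step. The same contrasts chose these genes, so nothing is read from the calls, and the SEs take no account of the choice. Whether either ID shares reads with a similar or overlapping gene was not tested.

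**Figure D2:**
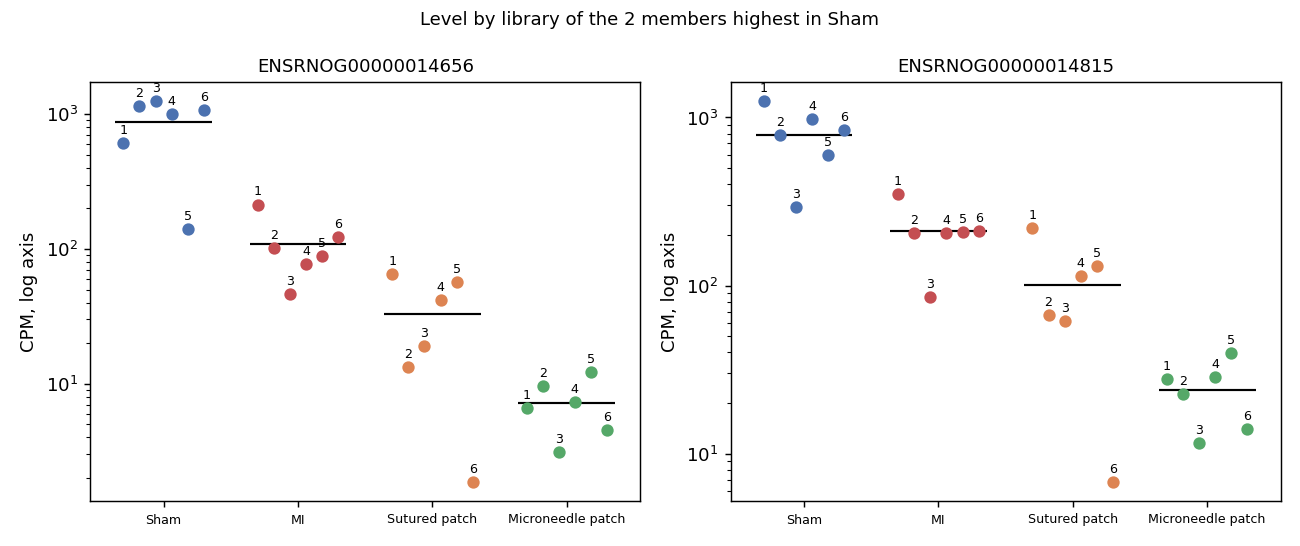
CPM (log axis) of ENSRNOG00000014656 and ENSRNOG00000014815 in every library, labelled by replicate number, with group means as lines. In both genes sutured patch replicate 6 (1.87 and 6.79 CPM) lies below every microneedle patch library, and MI replicate 1 (214 and 350 CPM) is the highest MI library.

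The 272 genes covered a wide range of abundance. Their Sham means ran from 5.10 to 873 CPM, with a median of 41.0 CPM and quartiles of 15.1 and 112 CPM. The median member stood at 14.6 CPM in MI, and the 2 patch groups had medians of 7.63 CPM (sutured) and 2.38 CPM (microneedle). By Sham level, 46 members lay from 5 to 10 CPM, 105 from 10 to 50, 36 from 50 to 100 and 85 from 100 to 1000. The fall from Sham to the microneedle patch was similar in these bands, with medians of 16.4-, 13.7-, 13.3- and 16.2-fold.

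The middle step was the smallest of the 3 in 168 of the 272 members, the first in 66 and the last in 38. This order rested on single libraries: with the same members and without sutured patch replicate 1, the middle step was the smallest in 75, the first in 79 and the last in 118, and the median folds were 2.52, 2.57 and 2.19. With any other library left out the middle step was the smallest in 118 to 245 members. In ENSRNOG00000014656 the fitted middle and last steps were -2.07 and -1.78 without sutured patch replicate 1, and -1.98 and -1.89 without sutured patch replicate 5. With all libraries the median fold was 2.52 from Sham to MI (quartiles 2.03 and 3.42), 1.97 from MI to the sutured patch (quartiles 1.73 and 2.27) and 2.81 from the sutured to the microneedle patch (quartiles 2.08 and 3.89). The same median ratios over all 14540 genes tested were 1.01, 0.966 and 1.07. The largest step was the last in 152 members, the first in 106 and the middle one in 14. Members with the largest first step had a median fall of 3.31-fold there, and those with the largest last step one of 3.38-fold there. A step of at least 4-fold was seen in 48 members at the first step, 3 at the middle step and 65 at the last. Over all 3 steps the median fall was 15.1-fold, and 193 members fell at least 10-fold.

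**Figure D3:**
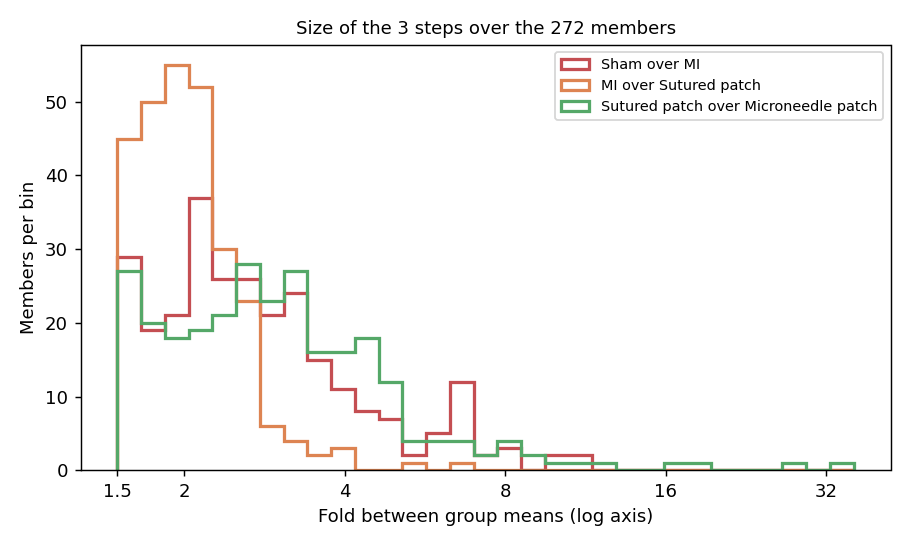
Number of members (of 272) by the fold between group means, on a log axis, for each of the 3 steps. The distributions start at 1.5-fold by the choice of genes; the step from MI to the sutured patch is concentrated near its median of 1.97-fold, and the other 2 reach further right.

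Near the threshold the choice divided genes with similar values. The 4 members just inside it had smallest steps of 1.5004, 1.504, 1.506 and 1.51, and the 4 genes just outside it, with all other conditions met, of 1.497, 1.495, 1.492 and 1.491. From Sham to the microneedle patch, the first member inside averaged 7.81, 5.21, 1.97 and 0.711 CPM. The first gene outside averaged 11.96, 7.99, 3.95 and 0.584 CPM. In all, 54 members had a smallest step from 1.5 to 1.6, and 66 further genes had one from 1.4 to 1.5.

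At the low end, 72 members averaged less than 1 CPM with the microneedle patch. No member lost all its counts there, although 9 had at most 10 counts over the 6 libraries. The lowest of them, at 26.5 CPM in Sham and 2.29 CPM in MI, had 3 counts over the 6 microneedle patch libraries. The next lowest by count, at 5.44 CPM in Sham, had 4. For the median member the 6 libraries held 200 counts. At least 1 count was seen in all 24 libraries for 228 members. All 272 members passed the filter on low counts, which the choice by Sham level favours.

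In most members the single libraries of neighbouring groups overlapped. The 4 group medians fell in order in 256 of the 272 members. Every Sham library was above every MI library in 35 members (12.9%), against 7.36% of all 14540 genes tested. Every MI library was above every sutured patch library in 2 members (0.735%, against 2.39% of all genes). Every sutured patch library was above every microneedle patch library in 3 members (1.10%, against 1.06%). No member was free of overlap at all 3 steps. The groups further apart were separated more often. Every MI library exceeded every microneedle patch library in 235 members (86.4%, against 7.93% of all genes), and every Sham library exceeded every microneedle patch library in 202 (74.3%, against 10.4%). Since the choice used all 4 groups, these shares describe the members and support nothing.

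The members were also read from the test across all genes. At an adjusted p below 0.05 in the quasi-likelihood test of edgeR, 163 members (59.9%) were called lower in MI than in Sham, against 23.2% of the 14540 genes tested. With the sutured patch, 8 members (2.94%) were called lower than in MI, against 1.67% of all genes. With the microneedle patch, 8 (2.94%) were called lower than with the sutured patch, against 0.172% of all genes. No member was called higher at any step. These contrasts were the ones that chose the members, so nothing is read from the counts. The counts at both patch steps also changed when single libraries were left out. Each such fit had 1 library less, and the reason for the changes was not tested. For the sutured patch against MI the count was 46 without sutured patch replicate 1 (16.9%, against 2.34% of all genes). It was 21 without Sham replicate 5 (7.72%, against 3.34%). That count was 1, 2, 3, 2 and 5 without MI replicates 1, 2, 4, 5 and 6. These were 0.368%, 0.735%, 1.10%, 0.735% and 1.84% of members, against 0.784%, 0.735%, 0.783%, 0.735% and 1.22% of all genes. Without sutured patch replicates 2, 3, 4 and 6 the count was 3, 2, 3 and 1. These were 1.10%, 0.735%, 1.10% and 0.368% of members, against 0.892%, 0.967%, 0.872% and 0.756% of all genes. Such low counts lay near the share over all genes. For the microneedle against the sutured patch the count was 75 without sutured patch replicate 6 (27.6%, against 0.954% of all genes). It was 39 without Sham replicate 5 (14.3%, against 0.982%) and 1 without sutured patch replicate 1 (0.368%, against 0.136%). It was 0 without sutured patch replicate 4 or 5 and without any microneedle patch replicate but the fifth. In those 7 fits 0% to 0.0545% of all genes tested were called lower. At an unadjusted p below 0.05 they gave 162 to 179 members, against 5.64% to 6.95% of all genes, and the fit of all libraries gave 193 members (71.0%), against 7.02% of all genes. DESeq2 called 89 members lower (32.7%) at an adjusted p below 0.05, against 1.62% of all genes.

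**Figure D4:**
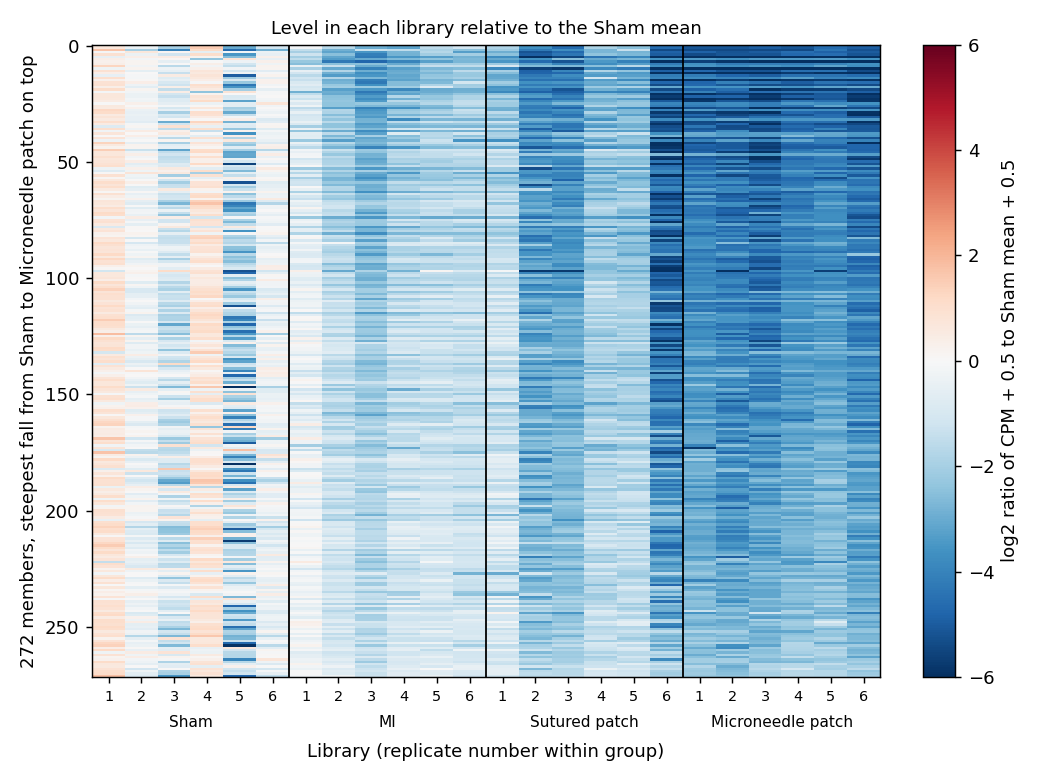
Each row is 1 of the 272 genes and each column 1 of the 24 libraries, numbered by replicate within its group; color gives the log2 ratio of CPM + 0.5 to the gene's Sham mean + 0.5. Columns darken from Sham to the microneedle patch, and whole columns stand apart within groups: Sham replicates 3 and 5 and sutured patch replicate 6 are low, and MI replicate 1 and sutured patch replicate 1 are high.

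The members varied together from library to library within each group. The rank of a library within its group was no condition of the choice, but the group means are averages of these same libraries, so single high or low libraries helped to decide which genes were members. MI replicate 1 was the highest MI library for 260 of the 272 members (95.6%), although it was highest for 28.4% of all genes tested. MI replicate 3 was the lowest for 226 (83.1%, against 24.9% of all genes). In the sutured patch group, replicate 1 was highest for 210 members (77.2%, against 19.6%) and replicate 6 lowest for 211 (77.6%, against 20.3%). In Sham, replicates 1 and 4 were highest for 115 and 105 members (42.3% and 38.6%, against 14.7% and 18.7%), and replicate 5 was lowest for 174 (64.0%, against 35.3%). Among microneedle patch libraries the order was less uniform, with replicate 5 highest for 130 members (47.8%, against 26.5%) and replicate 3 lowest for 106 (39.0%, against 16.2%). The ranks were therefore read again, after the data were seen, in genes chosen by the rule with the ranked library left out. MI replicate 1 was the highest MI library for 198 of the 210 genes chosen without it (94.3%), and MI replicate 3 the lowest for 227 of 279 (81.4%). Sutured patch replicate 1 was highest for 199 of 264 (75.4%) and sutured patch replicate 6 lowest for 176 of 229 (76.9%). In Sham, replicate 5 was lowest for 193 of 294 (65.6%), and replicates 1 and 4 were highest for 81 of 223 (36.3%) and 80 of 225 (35.6%). The other libraries still took part in each of these choices, so the shares are descriptions.

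These shifts were large beside the steps between groups, at which the fitted log2 fold changes of the members had medians of -1.41, -1.03 and -1.40. The comparison is rough, since the fit used TMM scaling and the deviations below used library totals. On the scale of log2(CPM + 0.5), the median member deviated from its group mean by 1.09 in Sham replicate 1, 1.06 in Sham replicate 4, -0.74 in Sham replicate 3 and -1.42 in Sham replicate 5. The median over all 14540 genes tested deviated by 0.01, -0.06, 0.14 and -0.15 in these libraries. CPM is scaled to each library's total, so this median does not measure how far other sets of genes shift. The median member deviated by 0.94 in MI replicate 1 and by -0.80 in MI replicate 3. With the sutured patch it deviated by 1.25 in replicate 1, 0.62 in replicate 4, 0.65 in replicate 5 and -1.51 in replicate 6. In microneedle patch libraries it stayed between -0.28 and 0.39. There 72 members averaged less than 1 CPM, and the added 0.5 CPM narrows deviations at such levels. In the 18 libraries of infarcted hearts the median of all genes stayed between -0.04 and 0.06. Low depth went with low member levels in Sham, where the 2 shallowest libraries, replicates 5 and 3, held the smallest member shares. The deepest Sham library, replicate 6, did not hold the largest. In the infarct groups this was not so. The shallowest MI library, replicate 1 (12864218 counts), held the largest MI share. The deepest sutured patch library, replicate 6 (14437712 counts), held the smallest share of its group. The part of depth in the result was not tested. Sham replicates 4 and 5 also stood apart in how many genes were detected (1 count or more), 14079 and 13635, against 16223 to 16449 in the other 4 Sham libraries, although replicate 4 held 10753596 counts. Member levels were high in replicate 4 and low in replicate 5, and the part of these 2 libraries in the shared pattern was not tested.

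**Figure D5:**
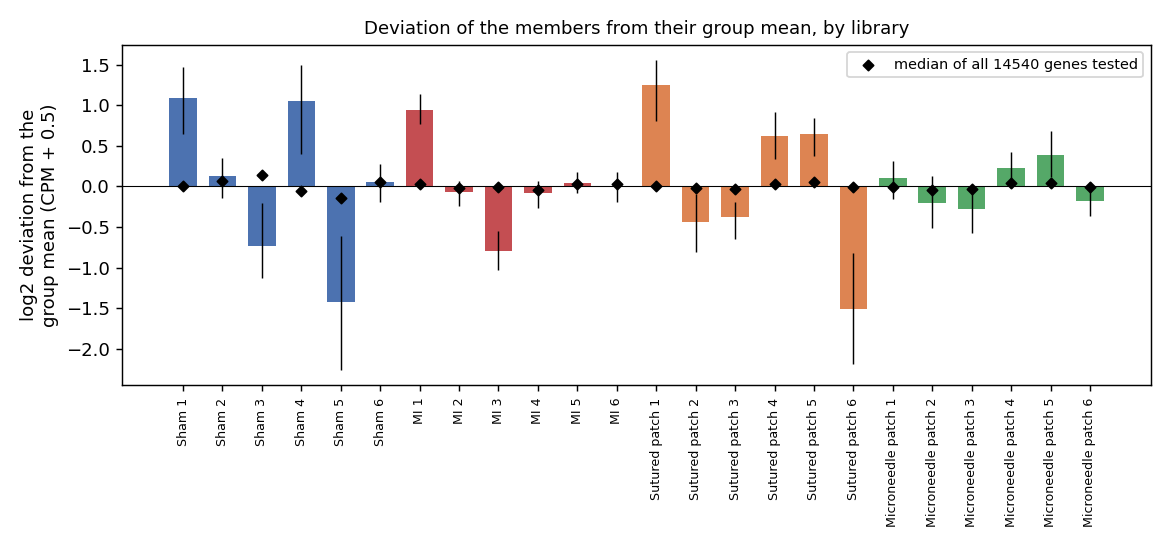
Bars give the median deviation of the 272 members from their own group mean in each library, on the scale of log2(CPM + 0.5); lines span the quartiles over members and diamonds mark the median over all 14540 genes tested. Bars reach 1.25 in sutured patch replicate 1 and -1.51 in sutured patch replicate 6, and all diamonds lie between -0.15 and 0.14. The diamonds give the center of all genes after scaling to library totals, not how far other sets of genes shift.

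The spread within groups was accordingly wide. The median coefficient of variation of a member was 66.9% in Sham, 72.6% in the sutured patch group, 47.2% in MI and 43.4% in the microneedle patch group. In the order Sham, MI, sutured and microneedle patch, the medians over all genes tested were 41.1%, 14.97%, 23.7% and 23.6%. For the median member, the highest sutured patch library was 12.8 times the lowest, compared with 8.47 times in Sham, 3.70 in MI and 3.35 with the microneedle patch. Sutured patch replicate 1 exceeded the MI mean in 133 members, and sutured patch replicate 6 lay under the microneedle patch mean in 210 and under every microneedle patch library in 114. MI replicate 1 exceeded the Sham mean in 38 members and Sham replicate 5 in 212.

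Genes outside the 272 shared the pattern over libraries. Each gene's deviations from its group means over the 24 libraries were compared with the median deviation of the 272 members. The correlation had a median of 0.86 among members, which themselves make up that profile, and of 0.04 over all genes tested; libraries share their depth and composition, and no p is given. It was above 0.8 for 173 members (63.6%) and for 469 of the 14540 genes tested (3.23%). ENSRNOG00000014656 had a value of 0.79 and ENSRNOG00000014815 one of 0.84. Of the abundant genes left out by the rule, 21 of 25 were above 0.8. The remaining 275 genes above 0.8 did not meet the rule as a whole. A step of at least 1.5-fold, as the rule asks, was seen from Sham to MI in 142 of them (51.6%, against 23.1% of all genes tested), from MI to the sutured patch in 109 (39.6%, against 11.3%) and from the sutured to the microneedle patch in 131 (47.6%, against 11.3%). Means were lower by any amount in 241 (87.6%, against 50.3%), 273 (99.3%, against 45.2%) and 268 (97.5%, against 61.2%) at these steps. Their median folds were 1.56, 1.42 and 1.48, and 28 of them had a Sham mean under 5 CPM. These 275 genes were picked by likeness to the members in the libraries that chose the members. Genes that met the whole rule were set aside, so the falls of the 275 are descriptions and support nothing.

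A smaller set of 16 members, picked after their values were seen, departed from the common pattern. They were picked by a correlation below 0.3 with the members' profile and had values from -0.15 to 0.27, so where they differ from the other members is given only as a description of what was picked. Their Sham means ran from 5.44 to 110 CPM, with a median of 14.8 CPM. In Sham, replicate 5 was the highest library for 9 of the 16 and replicate 4 the lowest for 14. In MI, replicate 1 was highest for 12, whereas the lowest library was replicate 3 for 7 and replicate 6 for 6; over all 272 members those 2 libraries were lowest for 226 and 12. Their fall was largest at the first step, with median folds of 3.97, 1.85 and 1.75 at the 3 steps, compared with 2.52, 1.97 and 2.81 over all 272.

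The 100 genes highest in Sham were divided by the same stepwise fall, so the falls of the 25 that met the other conditions, and the lack of one in the remaining 75, were fixed by that division. From Sham to the microneedle patch the 25 held 7.00% ± 3.29, 2.06% ± 0.925, 1.01% ± 0.684 and 0.331% ± 0.0822 of counts (SD, n = 6 each). Their share also was lowest in Sham replicate 5 (2.90%) and highest in Sham replicates 4 (10.8%) and 1 (10.3%). The other 75 held 15.4% ± 1.86, 16.4% ± 0.953, 15.7% ± 0.751 and 16.2% ± 0.890 of counts in the same order of groups. In Sham these 75 genes had their lowest shares in replicates 1 (13.3%) and 4 (13.5%) and their highest in replicate 5 (18.3%). Among 11962 genes outside the top 100 with a group mean of at least 5 CPM, the mirrored rule, with a rise of at least 1.5-fold at each step, was met by 21 genes. Neighbouring steps share a group's libraries, so the counts of 272 and 21 are descriptions.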

How the data were processed

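RNA-seq libraries of 24 rat ventricle samples were analysed. Per the submitters' processing notes the authors used HISAT2, featureCounts and the build rn6; the sources used here do not give versions, annotation release, strand setting or the handling of multi-mapping reads. The deposited table holds unnormalized read counts per gene, 1 column per library, assigned by the code in each sample title.

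CPM used library totals. The members and gene lists were chosen with earlier results of these data known. None of the 31 lists could be run, nor any promoter sequence or motif used, without symbols. The IDs printed are, by rule, the 2 members highest in Sham.

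For calls, genes kept by filterByExpr (minimum count 10; 14540 genes, 99.6% to 99.9% of counts) were scaled by TMM and fitted with edgeR 4.0.16 in R 4.3.3. All 4 groups entered 1 robust quasi-likelihood fit, with Benjamini-Hochberg adjustment over all genes tested. The SE of a log2 fold change is its size divided by the square root of F. The fit was also run on simulated counts that held no shifts shared by genes within a library. That run says nothing about such shifts, and nothing is read from it here. Alternatives were DESeq2 1.42.0, no filter, 2 groups alone, a replicate block, each library left out, and changes to each part of the rule. The order of the 3 steps without single libraries, and the library ranks in genes chosen without the ranked library, were added after the data were seen.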

Additional observations from a re-analysis of the deposited data

Results flagged for a closer look

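The share of counts held by the 272 members was 1.89% in MI replicate 1, far from the other 5 MI libraries: its gap to the nearest, MI replicate 5 at 0.976%, was 0.678 of the group's whole range; this is above Dixon's critical value for 6 libraries. The share of the 25 abundant genes that fell stepwise was 3.80% in the same library, with a gap of 0.664 of the range. Chance alone passes this limit in about 1 of 20 groups. Member by member, 102 of 272 (37.5%) had such a far library in MI, compared with 8.30% of all genes tested. In Sham it was 11 members (4.04%, against 14.2% of all genes), with the sutured patch 14 (5.15%, against 10.97%) and with the microneedle patch 19 (6.99%, against 5.30%). The libraries compared here, MI replicate 1 included, also made the group means that chose the members. The members also vary together, so these values are descriptions and nothing is read from them.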

How the results depend on the processing

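The number of genes that met the rule stayed within 1.5 times of 272 in 31 of 33 alternatives. It was 92 with steps of 2-fold and 490 with steps of 1.3-fold, by construction. Leaving out single libraries gave 210 (without MI replicate 1) to 294 genes, of which 189 to 271 were among the 272. Group medians gave 209 genes, with 176 of the 272 among them, and TMM scaling gave 283, with 255 of the 272. Without Sham replicates 4 and 5, which had counts in the fewest genes, 246 genes met the rule, 243 of them among the 272.

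Every refit, the replicate block below included, used members chosen by these same contrasts in all libraries. Nothing is therefore read from their counts or shares, or from how steady these were. Members called lower in MI than in Sham stayed within 1.5 times of 163 in all 29 alternatives. With single libraries left out they numbered 126 to 208, while 20.4% to 25.7% of all genes tested were called lower. For the sutured patch against MI, where 8 were called, DESeq2 called 26 (9.56%, against 3.15% of all genes tested). A fit of the 2 groups alone called 17 of 267 (6.37%, against 6.16%). Without Sham replicates 4 and 5, 27 were called (9.93%, against 4.66%). Leaving out single libraries gave 1 to 46, while 0.735% to 3.34% of all genes were called lower. For the microneedle against the sutured patch, also 8, DESeq2 called 89 (32.7%, against 1.62%), and no filter gave 2 (0.735%, against 0.0640%). The 2 groups alone gave 0 of 234 in edgeR, against 0.173% (184 members at an unadjusted p below 0.05, against 9.25% of all genes). Without Sham replicates 4 and 5, 56 were called (20.6%, against 1.71%). Leaving out single libraries gave 0 to 75, while 0% to 0.982% of all genes were called lower. The cause was not tested.

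With the replicate number as a block, 36 members were called for the sutured patch against MI (13.2%, against 2.70% of all genes) and 26 for the microneedle against the sutured patch (9.56%, against 0.619%). The labels do not say that a number marks a shared animal or day. Deviations of same-numbered libraries correlated from -0.14 to 0.44 over 36 pairs, above 0.1 in 19. Their median was 0.10, against -0.03 for pairs with other numbers. Of 24 libraries, 9 correlated best with one of their own number. By these medians, same-numbered libraries were somewhat more alike. Deviations were taken from group means, so the values of the 2 kinds of pairs are tied to each other. No share by chance was computed, and these values are descriptions. The numbers were not taken as pairs because the labels do not give them as pairs, and what a number shares was not tested. The log2 fold changes of the 2 printed IDs moved by less than the spread between replicates in all 29 alternatives at each step.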
